A study of Mus musculus with 23 samples.

Results

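The 10 genes described here sense or move bile acids, and they were taken by gene symbol from the 24917 loci counted in the colonic epithelium of mice. They are the receptors Nr1h4, Vdr, Nr1i2 and Gpbar1, the uptake transporter Slc10a2, the cytosolic carrier Fabp6, both subunits of the exporter, Slc51a and Slc51b, and the FXR targets Fgf15 and Nr0b2. Of these, 7 had more than 10 counts in all 23 libraries, and Fgf15, Nr0b2 and Gpbar1 were near or below detection.

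Male C57BL/6 mice (C57BL/6J in the methods) were put on their diets at 6 weeks of age. LF mice, the controls, had the 10% fat diet for 43 weeks, and HF mice, called obese in the study, had the 60% fat diet for 43 weeks. HFLF mice, called formerly obese, had the 60% fat diet for 15 weeks and then the 10% fat diet for 28 weeks. Fat came from lard in each diet, and no mouse carried a transgene by the labels, so diet was the only named difference between groups. The epithelium of the whole colon was loosened with EDTA, and total RNA was sequenced after removal of ribosomal RNA. Batch 1 holds 4 LF, 3 HF and 4 HFLF samples and batch 2 holds 4, 3 and 5, where batch is the word in the sample names and nothing further is said of it. The methods give 5 mice per regimen against 8 LF, 6 HF and 9 HFLF samples, so it is not established that the 23 samples are separate mice, and p-values may in part measure technical spread.

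Bile acids are made in the liver, and most are taken back up in the ileum, while the part that escapes reaches the colon and is altered there by bacteria. In an absorptive cell, Slc10a2 brings bile acids in at the lumen, Fabp6 binds them inside, and the Slc51a and Slc51b proteins together let them out towards the blood. FXR, the product of Nr1h4, is the main nuclear receptor for bile acids, and in the intestine it switches on Fabp6, Slc51a, Slc51b, Nr0b2 and Fgf15, the last of which is a hormone that restrains bile acid synthesis in the liver.

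Between 29189922 and 65320947 reads were counted on genes per library, so that 3 counts, taken as the floor of detection, equal 0.0459 to 0.103 CPM (reads on a gene scaled to a common library size, here after TMM factors). Intervals and floors of this kind cover counting error only. The 12 colonic epithelium markers summed to 26726 to 42184 CPM per library and all 12 were measured in every library, whereas 11 immune markers summed to 14.4 to 31.0 CPM and 15 stromal, muscle, vessel and nerve markers to 5.59 to 99.4 CPM. HF replicate 3 of batch 1 had the highest level of all 23 libraries for Nr1h4, Slc10a2, Slc51a and Slc51b and the lowest for Vdr. Its Fabp6 and Nr1i2 levels lay within the range of the other libraries. Its 16 small intestinal markers summed to 3037 CPM, against 1761 and 1780.1 CPM in the other HF samples of that batch. Most of such a sum came from Apob and Fabp2 (medians over all libraries 1367 and 351 CPM). Among HF samples of that batch, this library was highest for Apoa1 (0.315 CPM) and Apoa4 (0.901 CPM). It was lowest for Lct (0.135 CPM) and Itln1 (0.699 CPM), and its Sis (42.6 CPM) lay between the others. Over all libraries the median of Itln1 was 1.53 CPM. Itln1 reached 32.7 CPM in HF replicate 2 and 19.2 CPM in HFLF replicate 2 of batch 2. Member values that compare HF mice of batch 1 are also given without HF replicate 3 of that batch. In bulk tissue, fewer cells of a type and less RNA per cell cannot be told apart.

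Per kilobase of exon, the members fell into an expressed and a barely detected group. The median level over 23 samples was 102 CPM per kilobase for Vdr, 52.1 for Nr1h4, 47.7 for Nr1i2, 46.0 for Fabp6, 44.5 for Slc51b, 29.3 for Slc51a and 14.8 for Slc10a2. The medians of Gpbar1, Nr0b2 and Fgf15 were 0.142, 0.0597 and 0.0168 CPM per kilobase. Vdr stood above Nr1h4 in batch 2 without overlap of their ranges (83.5 to 119.7 against 49.0 to 60.5 CPM per kilobase), but the neighbours from Nr1h4 to Slc51b overlapped over the 23 samples. Fabp6 had the widest spread, from 4.91 to 299.9 CPM per kilobase, and Nr1i2 the narrowest of the expressed members, from 40.6 to 52.4.

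**Figure D1:**
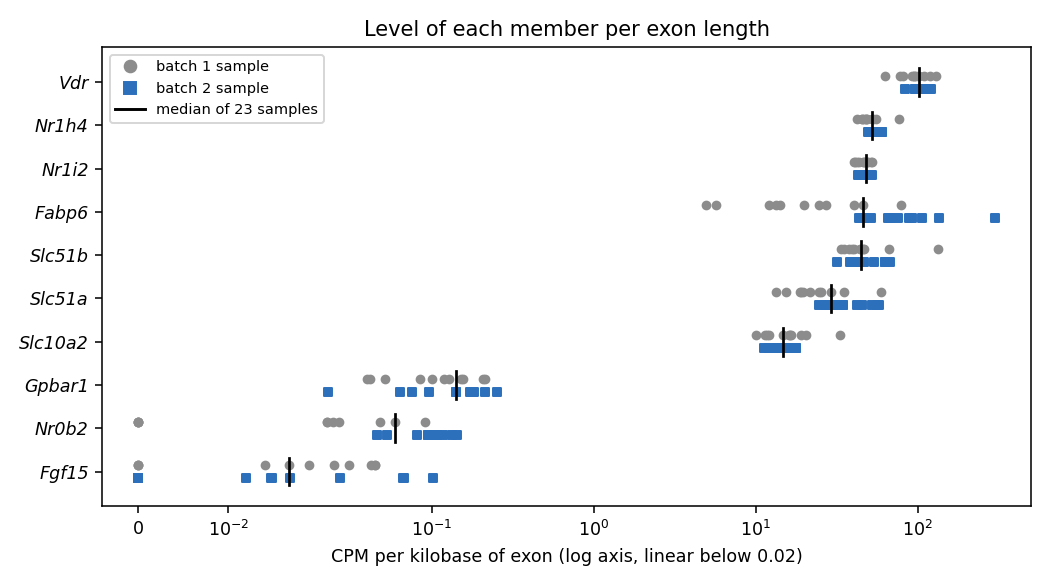
Level of each of the 10 genes in CPM per kilobase of exon (log axis, linear below 0.02), with 1 point per sample, grey circles for batch 1, blue squares for batch 2 and a bar at the median of 23 samples. The 7 expressed genes have medians of 14.8 to 102, and Gpbar1, Nr0b2 and Fgf15 have medians of 0.142, 0.0597 and 0.0168.

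To find out which members differed between obese and control mice, and whether the difference was still seen after the return to a low-fat diet, HF was compared with LF and HFLF with each of them. A gene was called where edgeR's quasi-likelihood test gave an adjusted p (Benjamini-Hochberg over all genes tested) under 0.05 and the fold change was above 1.2. Between HF and LF mice, 0 of 7 tested members were called in batch 1 with edgeR, DESeq2 or limma voom, where edgeR called 0% of 14428 genes, and 1 member, Vdr, had an unadjusted p under 0.05 (22.2% of genes). In batch 2 only Vdr was called (7.44% of 14377 genes), and over both batches Vdr was lower and Slc51b higher in HF mice (18.1% of 14385 genes). An unadjusted p under 0.05 was reached by 5 of 7 members in batch 2 (4761 of 14377 genes) and 5 over both (6058 of 14385). In HFLF against HF mice, 0 members were called in batch 1 with any of these tools (0.00693% of genes with edgeR), with 3 at an unadjusted p under 0.05 (10.9% of genes), 3 were called in batch 2 (14.5%), namely Fabp6, Slc51a and Vdr, and 3 over both batches (10.3%), namely Slc51a, Slc51b and Vdr. HFLF against HF mice had 6 members at an unadjusted p under 0.05 in batch 2 (5493 of 14377 genes) and 5 over both (5157 of 14385). HFLF and LF mice gave 0 calls among members with each of the 3 tools in batch 1 (0% of genes with edgeR), batch 2 (0.00696%) and both batches (0%). At an unadjusted p under 0.05, edgeR counted 0 members in batch 1 (5.29% of genes), 1 in batch 2, Slc10a2 (4.65%), and 0 over both (4.11%).

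In all 3 HF against LF fits, Nr1h4, Slc10a2, Slc51a, Slc51b and Fabp6 had positive log2 fold changes and Vdr and Nr1i2 negative ones, where 49.5% of all genes were positive in batch 1, 48% in batch 2 and 48.7% over both. Without HF replicate 3 of batch 1, the HF against LF value in batch 1 turned negative for Nr1h4 (-0.07), Slc10a2 (-0.20), Slc51a (-0.15) and Slc51b (-0.13), stayed positive for Fabp6 (0.36) and stayed negative for Vdr (-0.32) and Nr1i2 (-0.19). Without it, the HFLF against HF value in batch 1 was -0.10 for Nr1h4, 0.20 for Slc10a2, -0.23 for Slc51a, -0.05 for Slc51b, -0.10 for Fabp6, 0.19 for Vdr and 0.017 for Nr1i2. The median log2 fold change of the 7 tested members between HF and LF mice was 0.21 over both batches (all genes -0.01), and 0.054 without that library. The interaction of batch and diet, tested with edgeR, passed an adjusted p of 0.05 for 0 of 7 members and 0 of 14385 genes in each of the 3 comparisons. Without adjustment, 1 member reached a p under 0.05 in that test, Nr1i2 in HFLF against LF mice (edgeR adjusted p = 0.651).

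**Figure D2:**
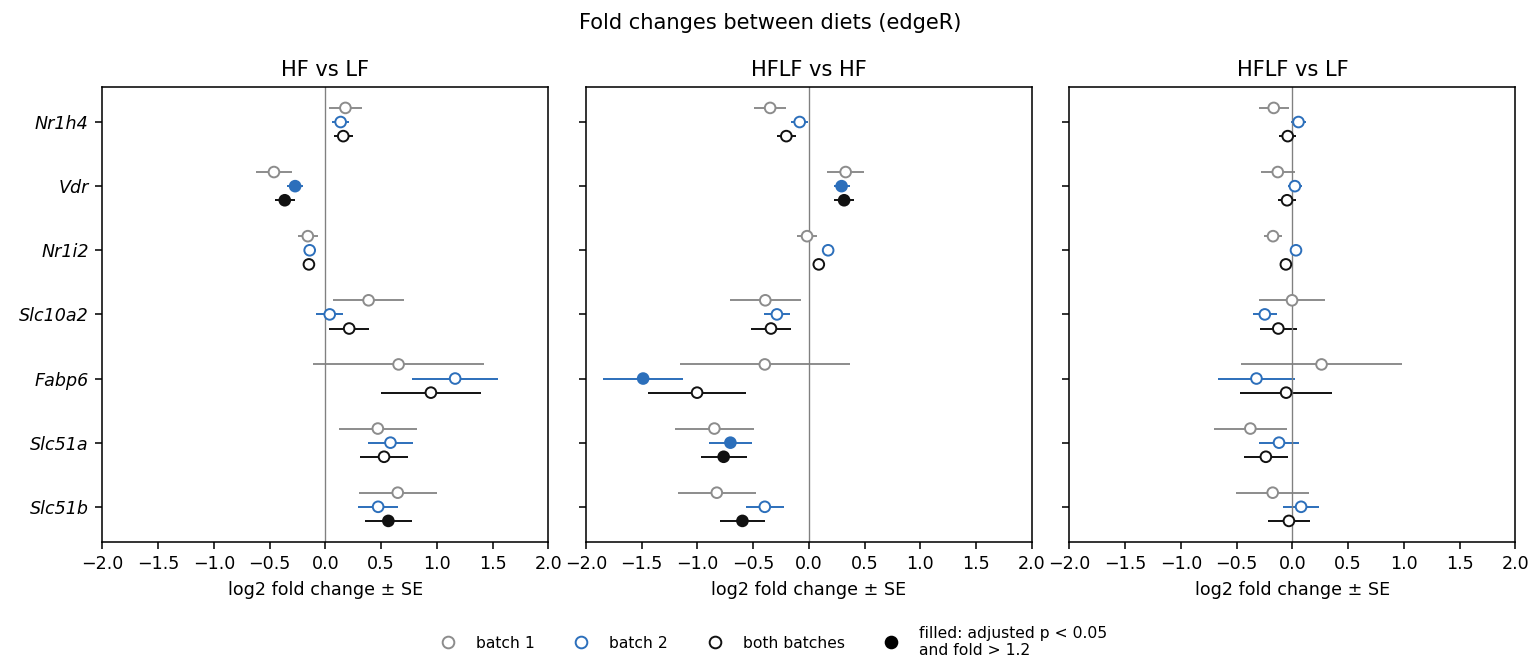
Log2 fold change with its standard error (horizontal bar) of the 7 expressed members in each comparison of diets, for batch 1 (grey), batch 2 (blue) and both batches (black). Filled points passed an adjusted p of 0.05 and a fold of 1.2 in edgeR, which for HF against LF were Vdr in batch 2 and Vdr and Slc51b over both batches, and none were filled for HFLF against LF.

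Vdr (chr15:97854427-97908296, minus strand), the vitamin D receptor, which also binds the secondary bile acid lithocholic acid, was lower in HF mice than in LF and HFLF mice. In batch 1 its level was 424, 566, 480.2 and 413 CPM in LF replicates 1 to 4 and 339.9, 412 and 274 CPM in HF replicates 1 to 3. HFLF replicates 1 to 4 of batch 1 had 355, 521, 399.9 and 444 CPM. All 3 HF samples thus lay below all 4 LF samples, though the nearest pair was almost level, and the HFLF samples overlapped both. In batch 2 the level was 504, 475, 485 and 469 CPM in LF mice, 417, 365 and 419 CPM in HF mice and 523, 437, 481, 497 and 514 CPM in HFLF mice. There every HF sample lay below every LF and every HFLF sample. Groups did not overlap in this way for 13.6% of genes between HF and LF mice of batch 1, for 27.3% between those of batch 2, and for 27% between HFLF and HF mice of batch 2.

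The log2 fold change of Vdr between HF and LF mice was -0.46 (SE 0.16, edgeR adjusted p = 0.169) in batch 1, -0.27 (SE 0.07, edgeR adjusted p = 0.0425) in batch 2 and -0.36 (SE 0.09, edgeR adjusted p = 0.00823) over both batches. The difference of mean CPM over both batches gave p = 0.000816 in a two-sided exact permutation test with labels exchanged within batches, the smallest p that test allows. For the other expressed members that permutation p was 0.00245 (Nr1i2), 0.0294 (Slc51a), 0.0408 (Fabp6), 0.0653 (Slc51b), 0.158 (Nr1h4) and 0.548 (Slc10a2). Over both batches Vdr remained called when any 1 of the 23 libraries was left out, but in batch 2 the call was lost without each of LF replicates 1, 2 and 3, HFLF replicates 4 and 5 and HF replicates 1, 2 and 3, with values from -0.30 to -0.20 and edgeR adjusted p of 0.0509 to 0.223. Its log2 fold change between HFLF and HF mice was 0.33 (SE 0.16, edgeR adjusted p = 0.474) in batch 1, 0.29 (SE 0.07, edgeR adjusted p = 0.0199) in batch 2 and 0.32 (SE 0.09, edgeR adjusted p = 0.0223) over both batches. That last call was lost without HFLF replicate 2 of batch 1 (0.26, edgeR adjusted p = 0.0567), HF replicate 3 of batch 1 (0.23, adjusted p = 0.0741) or HF replicate 2 of batch 2 (0.28, adjusted p = 0.0694), and the batch 2 call without HF replicate 2 (0.22, adjusted p = 0.145). HFLF and LF mice differed by -0.05 (SE 0.08) over both batches.

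Nr1i2 (chr16:38248349-38294824, minus strand) encodes PXR, a receptor for bile acids and foreign chemicals that induces detoxifying enzymes, and its differences were small. It ranged from 118 to 134 CPM in LF, 104 to 119.7 CPM in HF and 105 to 126 CPM in HFLF mice of batch 1. In batch 2 the values were 123, 129, 119.6 and 122 CPM in LF, 117, 109 and 111 CPM in HF and 130.0, 123, 132, 122 and 124 CPM in HFLF mice. All HF samples of batch 2 lay below all LF and HFLF samples, while groups of batch 1 overlapped. In batch 2, groups did not overlap, in either direction, for 27.3% of genes between HF and LF mice and 27% between HFLF and HF mice. The log2 fold change between HF and LF mice was -0.15 over both batches (SE 0.05, edgeR adjusted p = 0.0365), and that between HFLF and HF mice was 0.17 in batch 2 (SE 0.05, edgeR adjusted p = 0.0348). Both passed the adjusted p but not the fold of 1.2, so neither was called.

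Nr1h4 (chr10:89454234-89533622, minus strand), which encodes FXR, was not called in any comparison. Its level was 110.1 to 128 CPM in LF mice, 104, 119.9 and 177 CPM in HF mice and 97.4 to 111 CPM in HFLF mice of batch 1. In batch 2 it was 113 to 132 CPM in LF mice, 134, 139 and 123 CPM in HF mice and 115 to 138 CPM in HFLF mice. The groups overlapped in both batches, and the 177 CPM of HF replicate 3 of batch 1 was the highest of all 23 samples. The log2 fold change between HF and LF mice was 0.18 (SE 0.14, edgeR adjusted p = 0.454) in batch 1, 0.14 (SE 0.08, adjusted p = 0.227) in batch 2 and 0.16 (SE 0.09, adjusted p = 0.157) over both. In HFLF against HF mice it was -0.20 over both batches (SE 0.08, edgeR adjusted p = 0.0892). Without HF replicate 3 of batch 1, the values over both batches were 0.054 and -0.10 (edgeR adjusted p = 0.572 and 0.272).

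Gpbar1 (chr1:74278600-74279589, plus strand) encodes TGR5, the bile acid receptor of the cell surface, and had 1 to 15 counts per library, with more than 3 in 16 of 23 libraries. In batch 1 it had 8, 4, 6 and 6 counts in LF mice, 2, 3 and 2 in HF mice and 9, 5, 4 and 2 in HFLF mice. In batch 2 it had 5, 1, 7 and 3 counts in LF mice, 9, 4 and 15 in HF mice and 5, 9, 7, 3 and 9 in HFLF mice. All HF samples lay below all LF samples in CPM in batch 1 (two-sided exact permutation p = 0.0286, the smallest that 3 against 4 samples allow), whereas in batch 2 the groups overlapped and the HF mean was the higher one (exact permutation p = 0.286). Among the genes tested in batch 1, HF and LF groups did not overlap, in either direction, for 13.6%. Over both batches the exact permutation p was 0.562 between HF and LF mice, 0.313 between HFLF and HF mice and 0.702 between HFLF and LF mice.

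**Figure D3:**
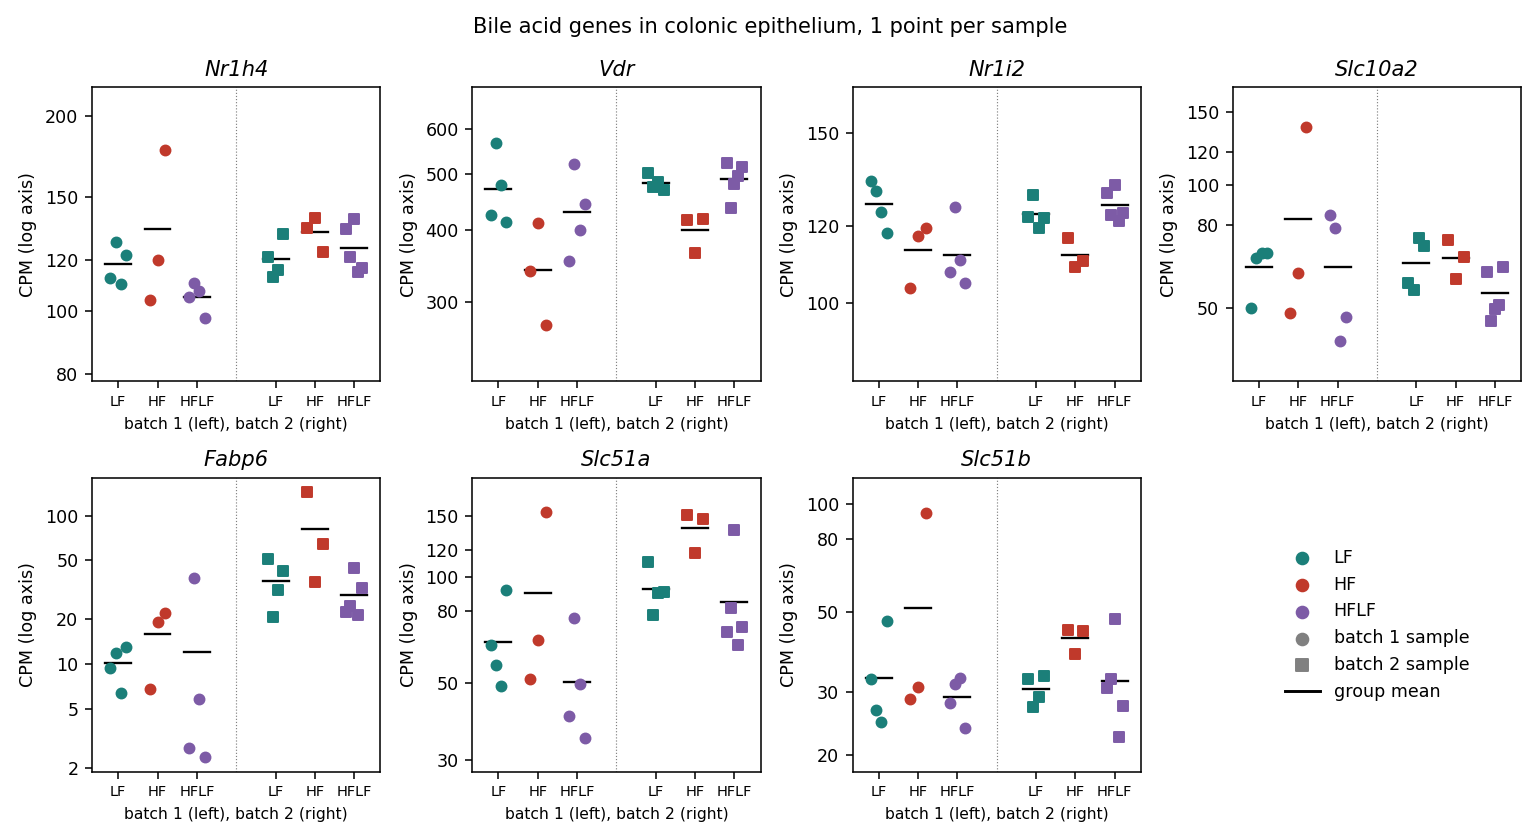
Level of each expressed member in CPM (log axis) in LF (green), HF (red) and HFLF (purple) mice, with batch 1 as circles on the left, batch 2 as squares on the right and a bar at the group mean. HF samples lie lowest for Vdr in batch 2 (365 to 419 CPM) and highest for Slc51a among LF and HF samples of batch 2 (118 to 151 CPM), and HF replicate 3 of batch 1 is the high point for Nr1h4, Slc10a2, Slc51a and Slc51b.

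Slc10a2 (chr8:5085623-5105232, minus strand), the apical sodium-dependent transporter that takes up bile acids, was expressed throughout and was not called in any of the 9 comparisons by the model described above. The replicate number as a block is the setting that gave a call, between HFLF and HF mice of batch 2 (-0.36, edgeR adjusted p = 0.0237). In batch 1 it ranged from 50.2 to 68.2 CPM in LF mice and from 41.5 to 84.3 CPM in HFLF mice, and HF replicates 1 to 3 had 48.6, 60.8 and 138 CPM. In batch 2 it ranged from 55.5 to 74.0 CPM in LF, 59.0 to 73.4 CPM in HF and 46.6 to 63.0 CPM in HFLF mice. The groups overlapped in both batches. The log2 fold change between HF and LF mice was 0.39 (SE 0.32, edgeR adjusted p = 0.469) in batch 1 and 0.04 (SE 0.12, adjusted p = 0.847) in batch 2. In batch 2 the HFLF against HF value was -0.29 (SE 0.12, edgeR adjusted p = 0.0875), and the HFLF against LF value -0.25 (SE 0.11, adjusted p = 0.9996).

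The carrier Fabp6 and the exporter Slc51a and Slc51b are the members with the largest differences between HFLF and HF mice, and all of them are known FXR targets. The 250 bases before their transcription starts (RefSeq, GRCm38.p6, minus strand for all 3 genes, printed 5′ to 3′) are shown so that the stretches like the FXR element can be seen. They lie at chr11:43601563-43601812 for Fabp6, chr16:32487880-32488129 for Slc51a and chr9:65422774-65423023 for Slc51b. Capitals mark a match to IR-1, the inverted repeat bound by FXR with its partner RXR, searched as AGGTCA and TGACCT with 1 base between them and up to 2 mismatches, or to its core, GGTCA and TGACC with 1 base between them and up to 1 mismatch, on both strands.
Fabp6: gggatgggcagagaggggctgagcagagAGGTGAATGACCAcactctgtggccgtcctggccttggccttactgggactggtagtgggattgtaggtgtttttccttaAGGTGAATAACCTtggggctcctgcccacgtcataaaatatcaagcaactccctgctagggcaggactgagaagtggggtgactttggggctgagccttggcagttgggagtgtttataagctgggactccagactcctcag
Slc51a: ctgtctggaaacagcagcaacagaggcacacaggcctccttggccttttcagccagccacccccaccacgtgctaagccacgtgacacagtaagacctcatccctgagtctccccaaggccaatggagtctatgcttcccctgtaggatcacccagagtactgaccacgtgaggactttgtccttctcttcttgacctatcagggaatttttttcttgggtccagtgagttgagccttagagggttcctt
Slc51b: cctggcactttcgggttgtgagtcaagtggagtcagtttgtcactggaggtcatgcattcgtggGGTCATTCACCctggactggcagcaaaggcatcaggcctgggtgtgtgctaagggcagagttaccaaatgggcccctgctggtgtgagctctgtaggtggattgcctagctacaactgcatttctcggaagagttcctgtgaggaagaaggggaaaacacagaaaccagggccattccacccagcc

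The Fabp6 window holds 2 IR-1 matches, AGGTGAATGACCA at 222 to 210 and AGGTGAATAACCT at 142 to 130 bases before the start, and the first also holds the core GGTGAATGACC. The Slc51b window holds the core match GGTCATTCACC at 186 to 176 bases before the start and no full IR-1 match, and the Slc51a window holds neither. Of 32851 RefSeq promoters, 0.959% hold an IR-1 match and 0.624% a core match in the same 250 bases. The core was added to the search after the sequences had been seen. Windows of 9 of the 10 members were searched, and no other member held an IR-1 or core match. DR-1 (AGGTCA repeated after 1 base, up to 2 mismatches, 3.24% of promoters) matched in the Nr1h4 window at 221 to 209 bases before the start. That window, chr10:89506659-89506908, lies before a start inside the locus given for Nr1h4, not before the 5′ end of that locus. DR-3 (AGGTCA repeated after 3 bases, up to 2 mismatches, 2.6% of promoters) and TCAAGGTCA without mismatches (0.387%) matched in none of the windows. A match describes these letters only.

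Fabp6 (chr11:43596040-43601562, minus strand) was the most variable member. In batch 1 it had 9.46, 11.8, 6.35 and 13.1 CPM in LF mice, 6.77, 19.3 and 22.0 CPM in HF mice and 2.72, 37.7, 5.78 and 2.35 CPM in HFLF mice. In batch 2 it had 51.1, 20.7, 31.5 and 42.4 CPM in LF mice, 144, 35.9 and 64.7 CPM in HF mice and 22.4, 24.6, 44.3, 21.5 and 32.4 CPM in HFLF mice. The diet groups overlapped in both batches, HF replicate 1 of batch 2 was the highest sample, and LF means were 10.2 ± 2.95 CPM (SD, n = 4) in batch 1 and 36.4 ± 13.2 CPM (SD, n = 4) in batch 2. The log2 fold change between HF and LF mice was 0.66 (SE 0.77, edgeR adjusted p = 0.612) in batch 1, 1.16 (SE 0.38, adjusted p = 0.0634) in batch 2 and 0.95 (SE 0.45, adjusted p = 0.113) over both, and without HFLF replicate 2 of batch 1 the last was 0.92 and passed (adjusted p = 0.0319).

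Fabp6 fell by 1.49 on the log2 scale between HF and HFLF mice of batch 2 (SE 0.36, edgeR adjusted p = 0.0197), while the values in batch 1 (-0.40, SE 0.76, adjusted p = 0.854) and over both batches (-1.003, SE 0.44, adjusted p = 0.104) did not pass. The batch 2 call was lost without HF replicate 1, when the value was -0.80 (edgeR adjusted p = 0.0913), and without HF replicate 2, when it was -1.85 (adjusted p = 0.0521). Over both batches the value without HFLF replicate 2 of batch 1 was -1.67 and passed (edgeR adjusted p = 0.0126). HFLF and LF mice of batch 1 differed by 0.26 (SE 0.72) with that sample and by -1.49 without it, and neither value passed.

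Slc51a (chr16:32475578-32487879, minus strand) encodes the alpha subunit of the basolateral organic solute exporter, and it was lower in HFLF than in HF mice. In batch 1 it had 64.0, 56.3, 49.0 and 91.9 CPM in LF mice, 51.3, 66.1 and 154 CPM in HF mice and 40.2, 76.6, 49.5 and 34.8 CPM in HFLF mice. In batch 2 it had 110.5, 78.1, 90.5 and 90.6 CPM in LF mice, 151, 118 and 147 CPM in HF mice and 69.8, 81.8, 137, 64.2 and 72.3 CPM in HFLF mice. In batch 2 all HF samples lay above all LF samples, which was so for 13.8% of genes, and above 4 of the 5 HFLF samples, and in batch 1 the groups overlapped.

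For Slc51a, the log2 fold change between HF and LF mice was 0.47 (SE 0.35, edgeR adjusted p = 0.419) in batch 1, 0.58 (SE 0.21, adjusted p = 0.0765) in batch 2 and 0.53 (SE 0.21, adjusted p = 0.0656) over both. The value over both was 0.29 without HF replicate 3 of batch 1 (edgeR adjusted p = 0.289), and it passed without HF replicates 1 or 2 or LF replicate 4 of batch 1 or HFLF replicate 3 of batch 2 (0.54 to 0.65, adjusted p of 0.0284 to 0.0410). The batch 2 value passed without HFLF replicate 3 (0.59, edgeR adjusted p = 0.0287) and with only HF and LF samples in the fit (0.59, adjusted p = 0.0323). Slc51a in HFLF against HF mice was at -0.85 (SE 0.35, edgeR adjusted p = 0.432) in batch 1, -0.70 (SE 0.19, adjusted p = 0.0277) in batch 2 and -0.76 (SE 0.21, adjusted p = 0.0208) over both. The call over both batches was lost without HF replicate 3 of batch 1 (-0.55, edgeR adjusted p = 0.0787), and that of batch 2 without each of HFLF replicates 1 and 4 and HF replicates 1, 2 and 3, with values from -0.82 to -0.62 and adjusted p of 0.0615 to 0.105. HFLF and LF mice differed by -0.24 over both batches (SE 0.19, edgeR adjusted p = 0.980).

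Slc51b (chr9:65412753-65422773, minus strand) encodes the beta subunit, which the exporter needs to reach the membrane, and it was higher in HF mice than in LF and HFLF mice over both batches. In batch 1 it had 32.5, 26.8, 24.7 and 47.2 CPM in LF mice, 28.8, 31.0 and 94.5 CPM in HF mice and 28.0, 31.5, 32.8 and 23.8 CPM in HFLF mice. In batch 2 it had 32.7, 27.2, 29.1 and 33.2 CPM in LF mice, 44.5, 38.2 and 44.4 CPM in HF mice and 30.7, 32.6, 47.9, 22.5 and 27.4 CPM in HFLF mice. All HF samples of batch 2 lay above all LF samples, which was so for 13.8% of genes. HFLF replicate 3 of batch 2 lay above every HF sample there, while in batch 1 HF replicates 1 and 2 lay within the LF range.

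For Slc51b, the log2 fold change between HF and LF mice was 0.65 (SE 0.35, edgeR adjusted p = 0.276) in batch 1, 0.47 (SE 0.18, adjusted p = 0.0888) in batch 2 and 0.56 (SE 0.21, adjusted p = 0.0459) over both. Slc51b in HFLF against HF mice was at -0.83 (SE 0.35, edgeR adjusted p = 0.434) in batch 1, -0.40 (SE 0.17, adjusted p = 0.102) in batch 2 and -0.60 (SE 0.20, adjusted p = 0.0475) over both. Both calls were close to the threshold and rested much on HF replicate 3 of batch 1, without which the HF against LF value was 0.23 (edgeR adjusted p = 0.300) and the HFLF against HF value -0.28 (adjusted p = 0.228). The HF against LF call was kept in 12 of 23 fits with 1 library left out, being lost also without LF replicates 1, 2 or 3 of either batch, HFLF replicate 2 of batch 2 or any HF replicate of batch 2 (0.52 to 0.63, edgeR adjusted p of 0.0521 to 0.0812). The HFLF against HF call was kept in 11 of 23, being lost also without LF replicate 1, HFLF replicates 1, 2 or 4 of batch 1, HFLF replicates 1, 2, 4 or 5 of batch 2 or any HF replicate of batch 2 (-0.66 to -0.55, edgeR adjusted p of 0.0525 to 0.0818). With limma voom the values were 0.48 (adjusted p = 0.0780) and -0.52 (adjusted p = 0.0678), and neither was called. The two-sided exact permutation p of Slc51b over both batches was 0.0653 between HF and LF mice and 0.0316 between HFLF and HF mice.

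The FXR targets that act as signals were hardly detected. Fgf15 (chr7:144896532-144900951, plus strand), the enterokine that travels to the liver, had 40 counts in all 23 libraries together, 0 counts in 7 of them, at most 8 in any, and more than 3 in only 3. These 3 were LF replicate 1 with 6 counts, HF replicate 3 with 8 and HFLF replicate 2 with 4, all of batch 2. Nr0b2 (chr4:133553390-133556536, plus strand) encodes SHP, a repressor without a DNA-binding domain, and had 68 counts in all, at most 8 in any library and more than 3 in 9. All 9 belonged to batch 2, where LF mice had 4, 5, 4 and 5 counts, HF mice 7, 2 and 8 and HFLF mice 3, 2, 5, 6 and 5, against 0 to 3 counts in batch 1. Neither gene passed the filter on low counts, and no difference between HF and LF mice was detectable at this depth, with two-sided exact permutation p-values over both batches of 0.576 for Fgf15 and 0.576 for Nr0b2.

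**Figure D4:**
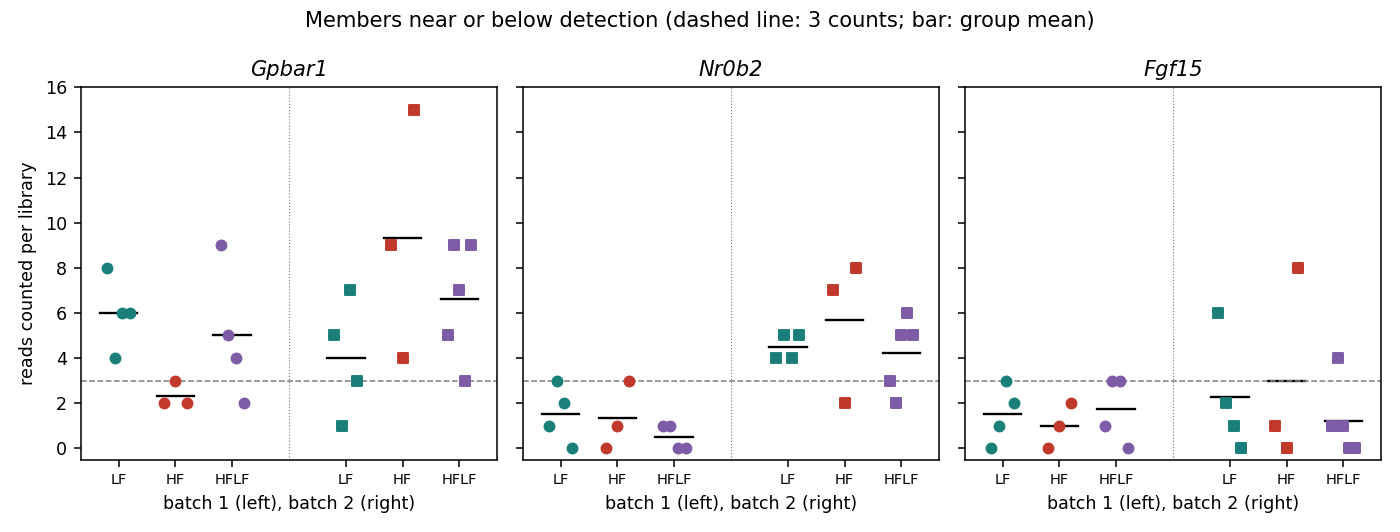
Reads counted per library for Gpbar1, Nr0b2 and Fgf15 by diet, with batch 1 on the left and batch 2 on the right, a bar at the group mean and a dashed line at the floor of 3 counts. No library exceeds 15 counts for Gpbar1 or 8 for Nr0b2 and Fgf15, and no batch 1 library exceeds the floor for Nr0b2 or Fgf15.

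Among the members, Slc51a and Slc51b varied together from sample to sample. Pearson's r of their log2 CPM, centred within batch, was 0.909 over 23 samples (Spearman's rho 0.854), 0.908 within batch 1 and 0.926 within batch 2, and 0.856 without the 2 samples farthest from the median of Slc51a. With diet means removed as well, r was 0.908. Slc51a and Fabp6 had r = 0.812 and rho = 0.896 (0.795 in batch 1, 0.847 in batch 2, 0.802 without 2 samples). Nr1h4 and Slc51b had r = 0.843 and rho = 0.692, and 0.631 without 2 samples, and Slc10a2 and Slc51b had r = 0.560, which was 0.187 without 2 samples. Vdr ran the other way from Slc51b, with r = -0.651 and rho = -0.546, and -0.459 without 2 samples. Members measured in one library share its depth and composition, and these 21 relations are given as descriptions without a test.

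**Figure D5:**
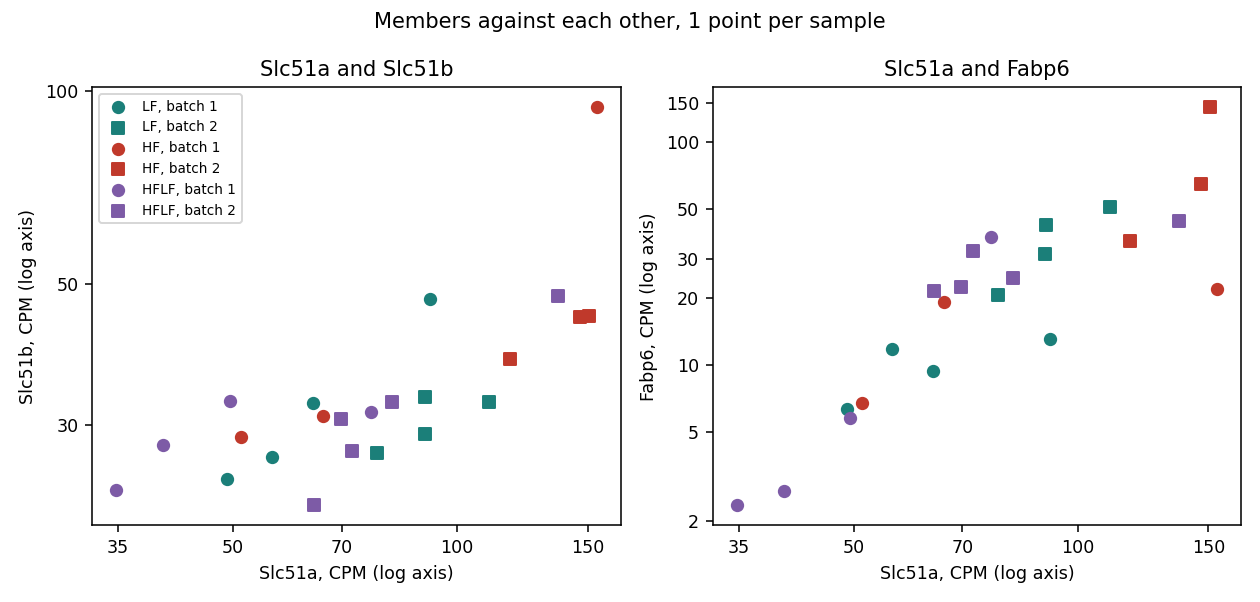
Level of Slc51b (left) and Fabp6 (right) against that of Slc51a in CPM (log axes), 1 point per sample, with diet by colour, batch 1 as circles and batch 2 as squares. Samples with more Slc51a had more Slc51b and more Fabp6 (r = 0.909 and 0.812 within batches), and HF replicate 3 of batch 1 is the point at 154 CPM of Slc51a and 94.5 CPM of Slc51b.

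Over all genes tested, those most like each member in log2 CPM centred within batch (23 samples) were found by Pearson's r. For Slc51a the first 3 were Slc51b (0.909), Pde9a (0.886) and Prmt6 (0.866). For Slc51b they were Pde9a (0.931), Agpat2 (0.919) and Slc51a, and for Fabp6 they were Slc51a (0.812), Slc7a9 (0.768) and Naaladl1 (0.751). For Nr1h4 the nearest were Coro2a (0.869), Herpud1 (0.859) and Cd55 (0.854), for Slc10a2 E2f8 (0.850), Vcl (0.809) and Mars (0.805), and for Nr1i2 Fmnl1 (0.855), Tnip2 (0.852) and Pard3b (0.837). Vdr had Adcy6 (0.976), Taf4a (0.970) and Lrp4 (0.960) and r above 0.8 with 718 genes, against 44 for Slc51b, 12 for Slc51a, 15 each for Nr1h4 and Nr1i2, 4 for Slc10a2 and 1 for Fabp6.

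Other genes of bile acid handling and of the same receptors were taken from lists in the fit over both batches, in which 18.1% of all genes were called between HF and LF mice and 10.3% between HFLF and HF mice. Of 7 tested of 12 other bile acid transporters, 0 were higher and 1 lower in HF than in LF mice. That 1 was Slco4a1, an organic anion transporter (-0.43, SE 0.11, edgeR adjusted p = 0.00912), whereas Abcc2 (-0.69, adjusted p = 0.0637) and Abcc3 (-0.21, adjusted p = 0.0730), both export pumps for conjugates, did not pass. In HFLF against HF mice Slco4a1 (0.37, edgeR adjusted p = 0.0240) and Abcc3 (0.31, adjusted p = 0.0230) rose and 0 fell, and the medians of the 7 were -0.16 and 0.15 (all genes -0.01 and 0.01). Of 9 tested of 16 genes of bile acid synthesis and conjugation, Scp2, a peroxisomal thiolase that shortens the bile acid side chain, was higher in HF than in LF mice (0.31, adjusted p = 0.00825), with Hsd17b4 at 0.16 (adjusted p = 0.0510) and Amacr at 0.14 (adjusted p = 0.113). None of the 9 was called between HFLF and HF mice, where Scp2 had -0.24 (adjusted p = 0.0356, under the fold of 1.2) and Hsd17b4 -0.15 (adjusted p = 0.0786).

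Of 18 listed partners and co-regulators of the receptors, 16 were tested. Over both batches, 0 of them were called higher and 2 lower in HF than in LF mice, where 18.1% of all genes were called. Of the 16, 3 were positive, and the median was -0.16 (all genes -0.01). Between HF and LF mice Rxrb, a partner with which FXR, VDR and PXR bind DNA (-0.24, edgeR adjusted p = 0.00263), and Nr1h2, a receptor for oxysterols (-0.25, adjusted p = 0.00536), passed the adjusted p but not the fold. None was called between HFLF and HF mice, with Rxrb at 0.24 (adjusted p = 0.00538), under the fold.

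The receptors' other known targets gave 1 call per list between HF and LF mice over both batches, where 18.1% of all genes were called. Each list also gave 1 call between HFLF and HF mice (10.3% of all genes). Of 8 tested of 10 other FXR targets, Scarb1, a receptor for high-density lipoprotein, was higher in HF mice (0.30, SE 0.05, edgeR adjusted p = 0.00164) and lower in HFLF than in HF mice (-0.34, adjusted p = 0.000801), while Insig2 (0.13, adjusted p = 0.0703) and Sdc1 (0.11, adjusted p = 0.279, and -0.13 between HFLF and HF, adjusted p = 0.209) did not pass. Of 8 tested of 10 targets of the vitamin D receptor, the channel-forming claudin Cldn2 was higher in HF than in LF mice (0.45, SE 0.12, edgeR adjusted p = 0.0108) and lower in HFLF than in HF mice (-0.55, adjusted p = 0.0100). Cldn12 passed the adjusted p but not the fold (0.26, adjusted p = 0.0178, and -0.22 between HFLF and HF, adjusted p = 0.0429), and the calcium channel Trpv6 had 0.75 (adjusted p = 0.0742). Of these 8 targets, 4 were positive and the median was -0.03 (all genes -0.01), and among the negative ones were Cyp24a1, the enzyme that breaks down vitamin D hormone (-1.98, edgeR adjusted p = 0.142), the calcium-binding S100g (-0.22, adjusted p = 0.623) and the calcium pump Atp2b1 (-0.12, adjusted p = 0.438). Of 15 tested of 16 PXR targets, the glutathione transferase Gsta1 was higher in HF than in LF mice (0.59, SE 0.20, edgeR adjusted p = 0.0339), and Cyp2c65 passed the adjusted p but not the fold (0.26, adjusted p = 0.0492). The only PXR target called between HFLF and HF mice was Abcc3, given above, and Gsta1 had -0.48 (edgeR adjusted p = 0.0837).

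Markers of other cells and gut regions were set beside these results. The small intestinal list had 12 of 16 genes tested. Over both batches, 10 of the 12 were positive between HF and LF mice (median 0.19, all genes -0.01). Between HFLF and HF mice 3 were positive (median -0.19, all genes 0.01), so the medians had the same directions as Slc51b. In batch 2 alone, 6 of 11 were positive between HF and LF mice (median 0.10). Alpi was called higher in HF than in LF mice over both batches (0.70, edgeR adjusted p = 0.00660). Alpi (-0.59, edgeR adjusted p = 0.0195) and Sis (-0.43, adjusted p = 0.0337) were called lower in HFLF than in HF mice. Sums of the list ranged from 1627 to 1969 CPM in LF, 1689.7 to 2056 CPM in HF and 1653 to 2010.5 CPM in HFLF mice of batch 2. Most of each sum came from Apob and Fabp2 (medians 1367 and 351 CPM), whereas Defa24 was at 0 in 23 libraries, Defa17 at 0 in 22, Apoc3 never exceeded 3 counts, and Lct, Apoa1 and Apoa4 did not exceed 0.903 CPM. The distal marker Hoxb13 had a median of 247 CPM. Of 8 enteroendocrine markers, 4 (Cck, Gcg, Insl5 and Pyy) were higher in HF than in LF mice and 4 (Gcg, Insl5, Pyy and Tph1) lower in HFLF than in HF mice over both batches, and their sums in batch 2 were 438 to 448 CPM in HF, 299 to 402 CPM in LF and 301 to 397 CPM in HFLF mice. Of 13 tested stromal, muscle, vessel and nerve markers, 0 were positive between HF and LF mice over both batches and 12 between HFLF and HF mice, with medians of -0.72 and 0.87, the same directions as Vdr. In batch 1 alone, 4 of 13 were positive between HF and LF mice, with a median of -0.11 (-1.22 in batch 2). Between HFLF and LF mice the medians were 1.07 in batch 1 and -0.90 in batch 2, where Vdr had -0.13 and 0.02. Pdgfra was the 1 called over both batches, lower in HF than in LF mice (-1.201, edgeR adjusted p = 0.0445), and in batch 2 Actg2 was called (-3.01, adjusted p = 0.0350), at levels of at most 2.78 CPM. Sums of the stromal list in batch 2 were 19.96 to 68.2 CPM in LF, 10.3 to 25.1 CPM in HF and 15.0 to 43.3 CPM in HFLF mice, which overlapped. Those of batch 1 were 24.7 to 44.1, 5.59 to 45.1 and 22.1 to 99.4 CPM. Of 7 tested immune markers, 1 was positive between HF and LF mice and 6 between HFLF and HF mice (medians -0.33 and 0.29), and edgeR called 0, with 0 and 1 at an unadjusted p under 0.05. Of 7 distal hindgut markers, 1 and 5 were positive (medians -0.24 and 0.10), and edgeR called 0, with 2 and 2 at an unadjusted p under 0.05. The part of these cells in the differences of Slc51a, Slc51b, Fabp6 and Vdr was not tested.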

How the data were processed

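Total RNA of mouse colonic epithelium was sequenced as stranded libraries after ribosomal RNA depletion (paired-end, 23 samples). Per the labels, the authors trimmed adapters with cutadapt 1.2.1, mapped reads to mm10 with STAR 2.5 and counted them per gene with featureCounts 1.5.0-p1. The deposited values are raw counts per gene in 1 table, with 1 column per sample, and how strand and multiply mapped reads were treated is not given in the sources used here. Total counts per library ranged from 29189922 to 65320947, which sets the floor of 3 counts at 0.0459 to 0.103 CPM.

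Samples were grouped by diet and batch from their titles. The model was edgeR 4.0.16 under R 4.3.3 (TMM factors, filterByExpr by diet, quasi-likelihood F test), with the 3 diets in one fit per batch and, for both batches, batch as a covariate. Genes tested numbered 14428, 14377 and 14385. Genes were called at an adjusted p under 0.05 and a fold above 1.2, the thresholds of the study, which used DESeq2. Standard errors are the log2 fold change divided by the square root of F. Levels are TMM-scaled CPM, compared singly by two-sided exact permutation tests of the mean difference. Exon lengths come from GENCODE M21 on GRCm38, and gene positions are those deposited with the counts. In counts simulated for each gene independently, the fit of HF against LF recovered 31.3% of 1.5-fold changes in batch 1 (14300 genes), 67.0% in batch 2 (14261 genes) and 77.6% over both (14295 genes). False calls numbered 5, 6 and 10. Variation that many genes of a library share was not simulated, so recovery in the real counts can differ.

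The members and all gene lists were chosen with earlier results of these data known. Named genes were the 10 members, up to 3 genes of each pathway list with the smallest p for HF against LF and up to 2 for HFLF against HF in the fit over both batches, and the 3 genes with the highest r for each tested member. Cyp24a1, S100g, Atp2b1, Alpi, Sis, Apob, Fabp2 and the other single markers were named after their values were seen. Diet1, Prac1 and Adgre1, which are on the lists, were not matched by symbol. Some listed genes that the rule would name are not reported here. Sequences come from RefSeq (GRCm38.p6).

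Alternatives were median-of-ratios factors, no filter on low counts, DESeq2 1.42.0, limma 3.58.1 with voom, only the 2 groups compared, the replicate number as a block, same-numbered samples of a diet as 1 mouse (limma voom), and each library left out in turn. Replicate pairs of 1 diet in 1 batch differed well beyond sampling noise (chi-square per gene 10.8 to 108), so none was merged into 1 sample. Pairs from different batches were not compared in this way, so these values do not show whether samples come from separate mice.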

Additional observations from a re-analysis of the deposited data

Results flagged for a closer look

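In 28 groups of 4 or 5 samples, 3 samples stood farther from the rest of their group than Dixon's limit allows, and chance alone flags about 1 in 20 groups. LF replicate 1 of batch 1 had the lowest Slc10a2 level of its group, 50.2 CPM, while the other samples of the group had 66.2 to 68.2 CPM. HFLF replicate 3 of batch 2 had the highest Slc51a level of its group, 137 CPM, while the others had 64.2 to 81.8 CPM. That sample also had the highest Slc51b (47.9 CPM) and Fabp6 (44.3 CPM) of its group. HFLF replicate 2 of batch 1 had the highest Fabp6 level of its group, 37.7 CPM, while the others had 2.35 to 5.78 CPM. Groups of 3, which are all the HF groups and so HF replicate 3 of batch 1, were not tested in this way.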

How the results depend on the processing

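The fall of Vdr in HF against LF mice kept its direction under every alternative run in both batches and its call over both batches under each of them. Fgf15, Nr0b2 and Gpbar1 are limited by depth. Leaving out 1 library at a time gave 0 to 1 members called between HF and LF mice in batch 1, 0 to 3 in batch 2 and 1 to 3 over both batches, and 0 to 4 between HFLF and HF mice in batch 2 and 0 to 3 over both. In batch 2, 1 member was called between HF and LF mice, against 0 without a filter on low counts, 2 with DESeq2, 2 with the replicate block and 3 with only the 2 groups compared. Over both batches, 2 were called, against 1 with limma voom, 1 with the replicate block and 1 with same-numbered samples as 1 mouse, since Slc51b was lost. Between HFLF and HF mice over both batches, 3 members were called with limma voom as with edgeR, but Fabp6 (-1.24, adjusted p = 0.0465) took the place of Slc51b. The causes were not tested.

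Some values turned sign, none of which was called as reported. Between HFLF and LF mice of batch 1, Slc10a2 was 0.0061 with median-of-ratios factors, 0.0033 without a filter, 0.0069 with DESeq2 and 0.024 with the replicate block (-0.0037 as reported), and Fabp6 was -0.65 with limma voom and -0.56 with the replicate block (0.26 as reported). Nr1i2 between HFLF and HF mice of batch 1 was 0.014 with the replicate block (-0.017 as reported). Leaving out 1 library turned the sign in these ranges. Between HF and LF mice they were -0.070 to 0.33 for Nr1h4, -0.20 to 0.65 for Slc10a2, -0.15 to 0.75 for Slc51a and -0.13 to 0.93 for Slc51b in batch 1, and -0.039 to 0.12 in batch 2 and -0.030 to 0.32 over both for Slc10a2. Between HFLF and HF mice of batch 1 they were -0.65 to 0.20 for Slc10a2 and -0.072 to 0.017 for Nr1i2. Between HFLF and LF mice they were -0.17 to 0.15 for Slc10a2, -0.30 to 0.053 for Slc51b and -1.49 to 0.59 for Fabp6 in batch 1, -0.12 to 0.18 for Slc51b and -0.0027 to 0.052 for Vdr in batch 2, and -0.14 to 0.065 for Slc51b, -0.75 to 0.063 for Fabp6 and -0.092 to 0.00078 for Vdr over both batches.

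The labels link samples of different groups only by a replicate number, and whether any of them share a mouse is not established. Deviations from the group means correlated between same-numbered samples from -0.38 to 0.39 in batch 1 (median 0.069). The range was -0.12 to 0.39 in batch 2 (median 0.077) and -0.34 to 0.23 between batches (median -0.011). Differently numbered samples gave -0.44 to 0.45 (median -0.017), -0.33 to 0.28 (median -0.043) and -0.29 to 0.34 (median -0.0033) in the same order. These ranges overlap and do not settle whether the numbers mark pairs. The main fits did not take them as pairs, and the block changed the member counts given above. Between HFLF and HF mice the block gave 4 members called in batch 2, where Slc10a2 was added, and 2 over both batches, against 3 and 3. Slc51b over both batches was 0.50 (edgeR adjusted p = 0.0903) between HF and LF mice and -0.54 (adjusted p = 0.0872) between HFLF and HF mice with the block.

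Counts over all genes depended more on the method. Between HF and LF mice of batch 1, 0 genes were called by edgeR, 1 with median-of-ratios factors, 2 without a filter and 478 with DESeq2, and in batch 2, 1069 by edgeR and 1856 with DESeq2. With the replicate block, 92 genes were called between HF and LF mice in batch 1 and 2080 in batch 2. Over both batches the block gave 2513, against 2605 without it. Between HFLF and HF mice of batch 1, DESeq2 called 14 genes and edgeR 1, and between HFLF and LF mice DESeq2 called 4 genes in batch 1, 15 in batch 2 and 6 over both against 0, 1 and 0. Leaving out 1 library, edgeR called 0 to 1352 genes between HF and LF mice in batch 1 and 15 to 2560 in batch 2, and 11 to 2778 between HFLF and HF mice of batch 2 and 501 to 2669 over both.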
